A study of Mus musculus with 10 samples.

Results

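The genes described here are the voltage-gated and potassium channel genes on the array, taken as every probe set annotated to a single gene whose symbol starts with Kcn, Scn or Cacn followed by a letter or digit. The rule found 98 genes, of 12393 single genes on the array, read by 141 of the 22626 probe sets tested. Of these, 62 were Kcn (potassium), 13 Scn (sodium) and 23 Cacn (calcium) genes. Each gene was read by its brightest probe set, that is the one with the highest mean over the 10 arrays, and the 43 other probe sets of 33 genes were kept as a second reading. The symbols also took a few genes that do not form channels of neurons: Scnn1a, Scnn1b and Scnn1g encode the epithelial sodium channel, and Scnm1 encodes a splicing factor named after a sodium channel.

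The tissue was cerebral cortex from 10 male mice at 6 months of age, each read on its own Affymetrix mouse 430A array. By their labels 5 mice were p97FE65 wild type and 5 were p97FE65 null, from 5 littermate pairs, and the question was which transcripts depend on FE65, an adaptor protein that binds the tail of the amyloid precursor protein. The allele was made in ES cells (line R1), a hybrid between substrains of another inbred strain than C57Bl/6J. The mice of both groups come from 10 generations of crossing to C57Bl/6J. The allele removes the full-length p97FE65 protein by loss of an early exon, so FE65 transcript is still made and the null mice are a model of the loss of 1 isoform. Whole cortex was profiled, and fewer cells of a type and less RNA per cell cannot be told apart in such tissue.

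Voltage-gated channels open when the membrane potential changes. Sodium channels carry the upstroke of the action potential, potassium channels repolarise the cell and set how fast it can fire again, and calcium channels couple spikes to transmitter release and to signalling inside the cell. Each channel has a pore subunit that lets the ion through and partner subunits that set its gating, its density and its place in the membrane. In cortex, fast-spiking interneurons that hold parvalbumin rely on Kv3 potassium channels and on the sodium channel pore Scn1a, whereas inward rectifiers of the Kcnj family hold the resting potential in neurons and astrocytes.

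The labels set the direction of every value below. Every difference is the mean of the labelled null arrays less that of the labelled wild type arrays, on the log2 scale. The signs obtained this way are opposite to those in the study's own tables, which also compare null with wild type mice. Which genotype each label stands for could not be settled from the sources used here. If the labels are exchanged, every value called higher below is lower in null mice, and the reverse. The 2 probe sets of FE65 itself (Apbb1) lie outside the deleted exon and cannot check the deletion. They were 0.11 higher (SE 0.10, exact permutation p = 0.341) and 0.26 higher (SE 0.06, exact permutation p = 0.00794) in the labelled null arrays. As folds these were 1.08 and 1.19. The study lists both probe sets as lower in null mice, by folds of the same size. Its RT-PCR of Gprc5b, a separate measurement, gave the direction of its tables. Exchanged labels would give such a mirror image, but this was not tested. The arrays had medians between 3.01 and 3.14, correlated between 0.994 and 0.999 with each other across probe sets, and no probe set of the 22626 passed an adjusted p of 0.05 in limma, while 830 (3.67%) had an unadjusted p under 0.05. With 5 arrays in a group, the number of arrays limits the precision.

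No channel gene passed the adjusted threshold. The lowest adjusted limma p among the 98 was 0.999, and the methods' t-test with the same adjustment also called 0. With the threshold set on the unadjusted p (under 0.05 in limma) there were 5 channel genes, against 3.94% of all genes. The gene on the higher side was Scn3b (1 of 98, against 1.33% of all genes on that side), and the 4 on the lower side were Cacna1g, Cacng2, Cacnb4 and Kcnab2 (4 of 98, against 2.61%). The share of channel genes was 5.1%, which is near the share over all genes. Among the 30 channel genes with a mean of at least 5 on the log2 scale it was 3 of 30, against 6.52% of 4921 genes of that level, with 1 on the higher side (against 1.32%) and 2 on the lower (against 5.2%). The other 68 channel genes were dim, with means under 5. Single named genes were also tested by exact permutation of the labels, two-sided, and those p-values are unadjusted.

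The size of the differences was small. The median over the 98 channel genes was -0.0037, against -0.0021 over all genes, and 76 of the 98 (77.6%) lay within 0.1 of 0, against 75.7% of all genes. Among the 30 genes with a mean of at least 5 the median was -0.04, as it was over all genes of that level (-0.04), with 10 values above 0 and 20 below. Over all genes of that level 1716 values were above 0 and 3205 below, a similar tilt. The largest fold in either direction was 1.32. Arrays of the groups did not overlap for 1 channel gene, Scn3b, on the higher side, against 0.686% of all genes (0.315% higher, 0.371% lower). Among the genes with a mean of at least 5 it was 1 of 30, against 0.874% (0.244% higher, 0.63% lower).

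**Figure D1:**
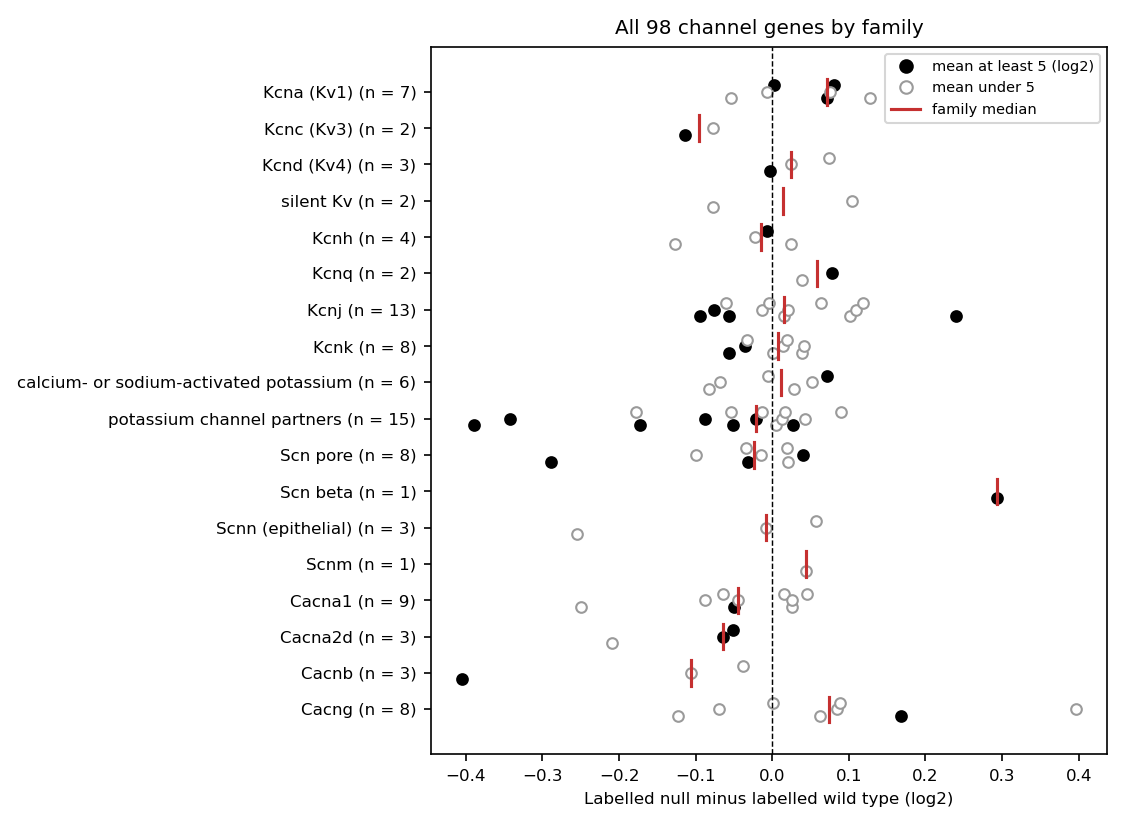
Difference between the labels, null less wild type (log2, x axis), for all 98 channel genes by family (y axis), with filled points for genes with a mean of at least 5, open points for dimmer genes and a red line at each family's median. The values run from -0.41 (Cacnb4) to 0.40 (Cacng5), and most lie within 0.1 of 0.

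**Figure D2:**
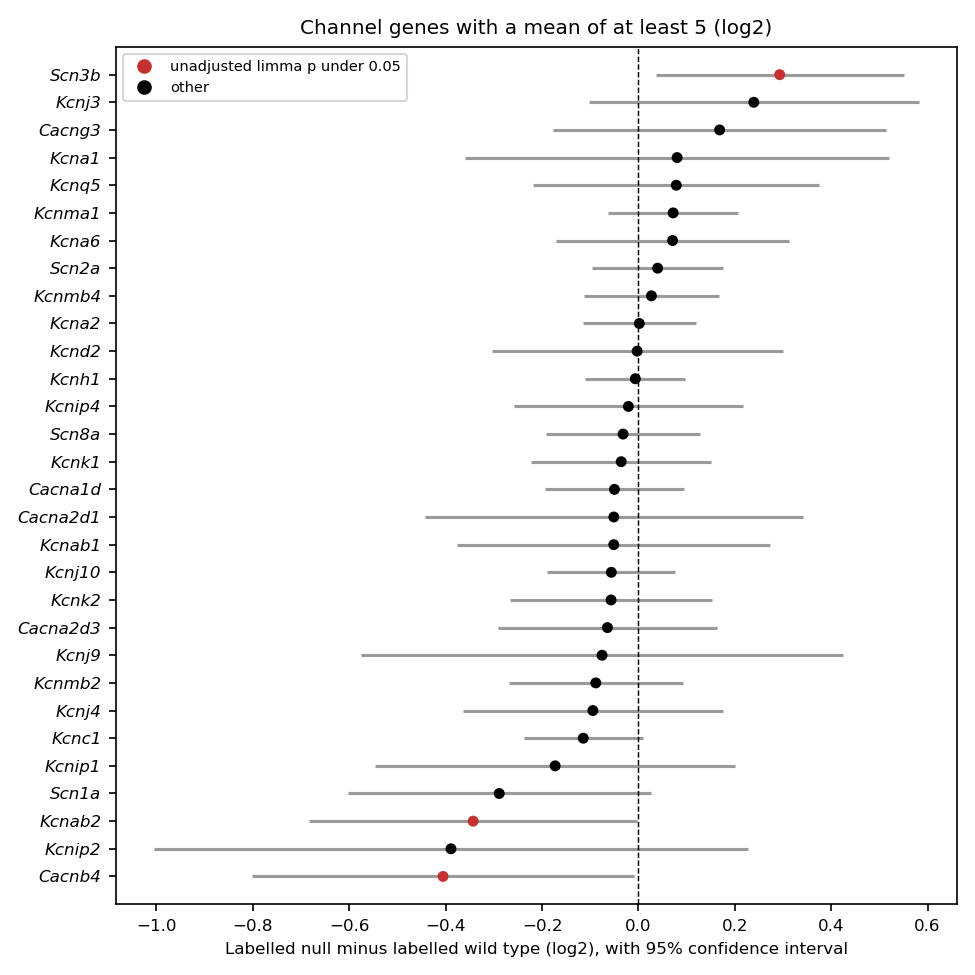
Difference between the labels, null less wild type (log2, x axis), with its 95% confidence interval for the 30 channel genes with a mean of at least 5, sorted by size (n = 5 and 5 arrays). Red points mark an unadjusted limma p under 0.05: Scn3b on the higher side, Kcnab2 and Cacnb4 on the lower.

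No voltage-gated potassium channel pore had an unadjusted limma p under 0.05. Kcna1, Kcna2 and Kcna6 encode pores of Kv1 channels, low-threshold potassium channels of axons. Kcna1 read 9.0, 9.05, 9.26, 9.68 and 9.01 in the labelled wild type arrays 1 to 5, and 9.20, 9.93, 8.85, 9.37 and 9.05 in the labelled null arrays 1 to 5. The spread between mice was wide and the groups overlapped, so that the difference of 0.08 (SE 0.20, exact permutation p = 0.706) had an interval from -0.36 to 0.52. Kcna2 differed by 0.00 (95% confidence interval -0.12 to 0.12) and Kcna6 by 0.07 (-0.17 to 0.31). Kcna5, a Kv1 pore better known from heart and vessels, was dim, at 1.45 ± 0.12 (SD, n = 5) in the labelled wild type and 1.58 ± 0.06 in the labelled null arrays (exact permutation p = 0.0476).

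Kcnc1 encodes a Kv3 pore, which closes fast and lets neurons fire at high rates. Its values were 8.25, 8.50, 8.32, 8.28 and 8.30 in the labelled wild type arrays, and 8.21, 8.17, 8.26, 8.31 and 8.14 in the labelled null arrays. Labelled wild type array 2 was the highest, and labelled null arrays 3 and 4 lay inside the range of the other group. The difference was -0.11 (SE 0.06, exact permutation p = 0.0556), and -0.05 after quantile normalization. Kcnc4, the other Kv3 pore on the array, was dim and differed by -0.08 (SE 0.05). Kcnd2, the main Kv4 pore of dendrites, gave -0.0026 with an interval from -0.30 to 0.30. The dim Kv4 gene Kcnd1 gave 0.07 (SE 0.07).

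Of the other voltage-gated potassium pores, Kcnq5, a pore of the M-current that damps repetitive firing, differed by 0.08 (SE 0.13), and Kcnh1, an ether-a-go-go channel, by -0.01 with a narrow interval from -0.11 to 0.10. Kcnh3, of the same family, was dim, at 3.04 ± 0.25 and 2.91 ± 0.10 (SD, n = 5 each). The silent subunit Kcns2, which forms no channel alone and modifies Kv2 channels, was at 3.79 ± 0.06 in the labelled wild type and 3.89 ± 0.16 in the labelled null arrays. None of these 4 differences was under 0.05 in unadjusted limma p.

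Inward rectifiers had 0 of 13 Kcnj genes under 0.05 in unadjusted limma p and 0.02 as their median difference. Kcnj3 encodes a potassium channel subunit opened by G proteins and thereby by inhibitory transmitters. It read 6.79, 6.61, 6.66, 6.81 and 6.76 in the labelled wild type arrays, and 7.64, 6.81, 6.76, 6.77 and 6.85 in the labelled null arrays. Labelled null array 1 stood apart, at 7.64, and the other 4 lay between 6.76 and 6.85, so the difference of 0.24 (SE 0.15, exact permutation p = 0.0873) was 0.07 without that array. Kcnj9, another subunit of these G protein-gated channels, varied among the labelled wild type mice from 5.09 to 6.54 and differed by -0.08 (SE 0.23). Kcnj10, the main potassium channel of astrocytes, which clears potassium released by active neurons, gave -0.06 with an interval from -0.19 to 0.08.

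Other members of this family that came nearest to the threshold were dim. Kcnj2 encodes a strong inward rectifier of muscle and neurons and read 0.98 ± 0.07 and 1.08 ± 0.06 (SD, n = 5 each, difference 0.10, exact permutation p = 0.0397). Kcnj8, the pore of an ATP-sensitive channel of vascular cells, read 1.61 ± 0.11 and 1.73 ± 0.06 (difference 0.12, exact permutation p = 0.0317), and Kcnj14, another inward rectifier, 1.60 ± 0.05 and 1.67 ± 0.04. Neither had an unadjusted p under 0.05 in limma. At such levels the GC-RMA values are close to the background of the array.

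The two-pore channels, which carry the resting leak of potassium, lay within 0.1 of 0 in 8 of 8 genes. Kcnk1 differed by -0.04 (95% confidence interval -0.22 to 0.15), Kcnk2 by -0.06 (-0.27 to 0.15) and the dim Kcnk7, a member that is silent when expressed alone, by 0.04. The channels opened by calcium or sodium also lay within 0.1 in 6 of 6 genes. Of these Kcnma1, the pore of the large-conductance calcium-activated channel that shapes the end of the action potential, gave 0.07 (SE 0.06, interval -0.06 to 0.21) at its brightest probe set. The dim Kcnn3, a small-conductance calcium-activated pore, gave 0.05 (SE 0.04).

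Partner subunits of potassium channels held 15 genes, with a median difference of -0.02 and 1 gene under that threshold. That gene was Kcnab2, a cytoplasmic beta subunit of Kv1 channels that helps to bring them to the axon. It read 11.24, 10.54, 10.67, 10.74 and 10.76 in the labelled wild type arrays, and 10.83, 10.44, 10.06, 10.52 and 10.39 in the labelled null arrays. Labelled wild type array 1 was the highest and labelled null array 3 the lowest, and the groups overlapped through labelled null array 1. The difference was -0.34 (SE 0.15, exact permutation p = 0.0794), and its unadjusted limma p, under 0.05 over all arrays, was not under 0.05 in 8 of the 10 fits that left out 1 array, with differences between -0.44 and -0.23.

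Kcnip2 encodes a calcium-binding partner of Kv4 pores. Its values spread more than those of any other of the 30 channel genes: 7.01, 6.61, 7.51, 7.50 and 6.10 in the labelled wild type arrays, and 6.93, 6.30, 6.06, 6.76 and 6.73 in the labelled null arrays. The difference was -0.39 (SE 0.28, exact permutation p = 0.278), and both groups reached down to about the same level, so it was inside the spread between mice. Without labelled wild type array 5, the lowest of its group, it was -0.60, and the unadjusted limma p was then under 0.05. The related Kcnip1 and Kcnip4 gave -0.17 (SE 0.17) and -0.02 (SE 0.11). Kcnab1, the other Kv1 beta subunit of this level, gave -0.05 (SE 0.15), and Kcnmb4, the neuronal beta subunit of the large-conductance channel, 0.03 with an interval from -0.11 to 0.17.

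**Figure D3:**
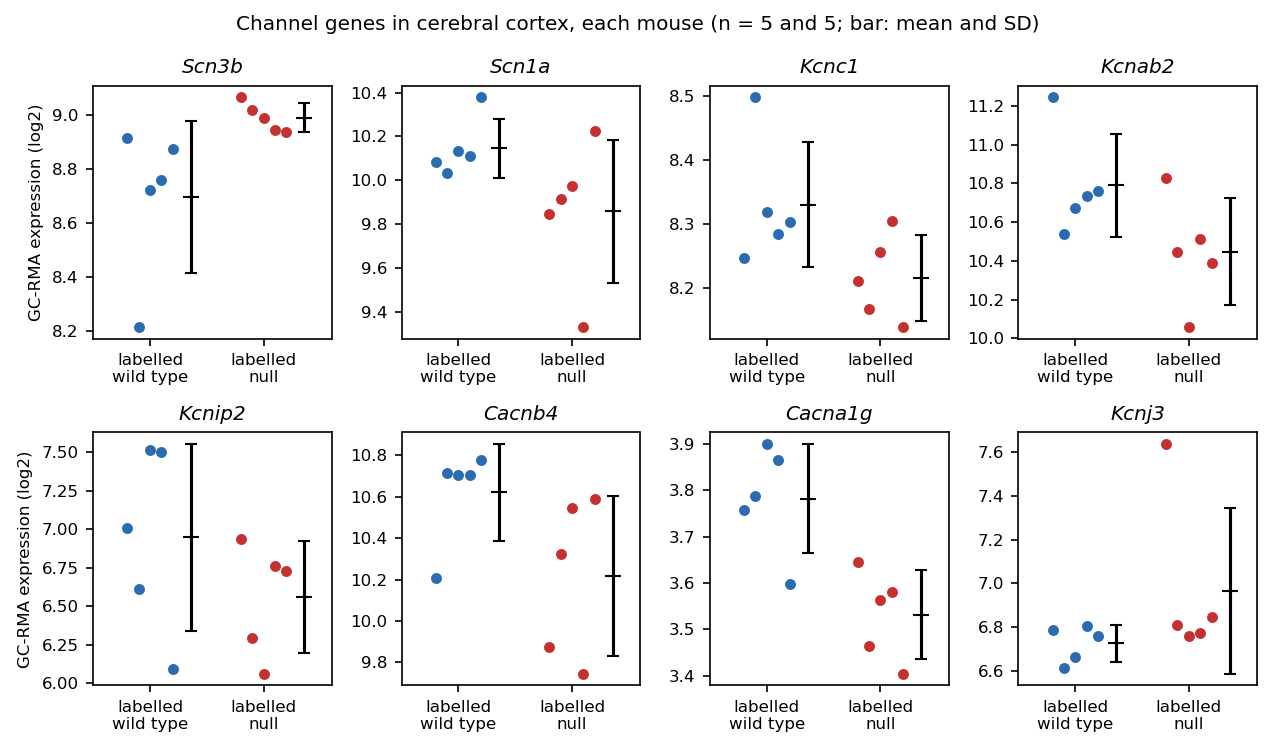
GC-RMA expression (log2, y axis, a separate scale in each panel) of 8 channel genes in each mouse, replicates 1 to 5 from left to right within each label, with the mean and SD beside them (n = 5 and 5). Scn3b is the gene whose groups do not overlap, and single arrays stand apart for Kcnj3 (labelled null 1) and Scn3b (labelled wild type 2).

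Among the sodium channel genes Scn3b was the one whose groups did not overlap. It encodes an auxiliary beta subunit that spans the membrane, speeds recovery of the pore from inactivation and helps neurons to fire. It read 8.92, 8.21, 8.72, 8.76 and 8.87 in the labelled wild type arrays, and 9.06, 9.02, 8.99, 8.94 and 8.94 in the labelled null arrays. Every labelled null array lay above every labelled wild type array, by as little as the step from 8.92 to 8.94, and labelled wild type array 2 lay far below the rest. The difference was 0.29 (SE 0.12, 1.23-fold, limma adjusted p = 0.999). The exact permutation p was 0.00794, the smallest that 5 against 5 arrays can give. Groups that do not overlap always give this value, so it adds nothing to the lack of overlap. The difference was 0.17 without labelled wild type array 2, and the unadjusted limma p was no longer under 0.05 without labelled null array 1 or 2.

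Of the 8 sodium channel pores 0 had an unadjusted limma p under 0.05, and Scn1a had the lowest difference among them. Scn1a is the pore that fast-spiking interneurons depend on most. It read 10.08, 10.03, 10.13, 10.11 and 10.38 in the labelled wild type arrays, and 9.85, 9.91, 9.97, 9.33 and 10.23 in the labelled null arrays. In the labelled null group 4 of 5 arrays were below the lowest array of the other group, with array 4 lowest, while array 5 lay inside its range. The difference was -0.29 (SE 0.14, exact permutation p = 0.0794), and -0.16 without labelled null array 4.

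Scn2a and Scn8a, the pores of the axon initial segment of excitatory neurons, differed little. Scn2a gave 0.04 with an interval from -0.10 to 0.18, and Scn8a -0.03 with an interval from -0.19 to 0.13. The other sodium pores were dim. Scn7a, a sodium-sensing relative found in glia, read 1.63 ± 0.07 and 1.53 ± 0.07 (SD, n = 5 each, exact permutation p = 0.0556). The epithelial subunit Scnn1a read 4.64 in labelled wild type array 2 and between 3.06 and 3.57 in the other 9 arrays, and its difference was -0.25 with that array and -0.0014 without it. Scnm1 gave 0.04 (SE 0.04).

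Of the 23 Cacn genes 3 were lower at an unadjusted limma p under 0.05 (against 2.61% of all genes): Cacnb4, Cacna1g and Cacng2. Among the 5 Cacn genes with a mean of at least 5 it was 1, Cacnb4 (against 5.2% of all genes of that level). Cacnb4 encodes a cytoplasmic beta subunit, which brings the pore to the membrane and sets its gating, and its loss causes ataxia and seizures in mice. It read 10.21, 10.71, 10.70, 10.70 and 10.78 in the labelled wild type arrays, and 9.88, 10.32, 10.54, 9.75 and 10.59 in the labelled null arrays. Labelled wild type array 1 lay below the other 4 of its group and among the labelled null arrays, of which arrays 1 and 4 were lowest. The difference was -0.41 (SE 0.18, 1.32-fold, exact permutation p = 0.0794), the largest in size among the channel genes, and its unadjusted limma p, under 0.05 over all arrays, was not under 0.05 in 7 of the 10 fits that left out 1 array, with differences between -0.51 and -0.29.

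Cacna1g encodes a pore of T-type calcium channels, which open near the resting potential and drive burst firing. It was dim, at 3.76, 3.79, 3.90, 3.87 and 3.60 in the labelled wild type arrays, and 3.65, 3.46, 3.56, 3.58 and 3.40 in the labelled null arrays. The groups overlapped by 1 array on each side, labelled wild type array 5 and labelled null array 1. The difference of -0.25 (SE 0.07) had the smallest unadjusted limma p of the channel genes (adjusted p = 0.999, exact permutation p = 0.0159), and it was between -0.30 and -0.22 with an unadjusted p under 0.05 in 10 of 10 fits that left out 1 array. Cacna1d, the L-type pore and the single Cacna1 gene with a mean of at least 5, gave -0.05 with an interval from -0.19 to 0.10.

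Alpha2delta subunits raise the amount of channel at the surface and are the site where gabapentin binds. Cacna2d1 and Cacna2d3 differed by -0.05 (SE 0.18) and -0.06 (SE 0.10), and the direction of Cacna2d1 turned to 0.01 after quantile normalization. The dim Cacna2d2 read 3.07 ± 0.14 and 2.86 ± 0.20 (SD, n = 5 each, exact permutation p = 0.0952).

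The Cacng genes are named as gamma subunits of calcium channels, and several of them, Cacng2, Cacng3 and Cacng5 among them, serve instead as partners of AMPA-type glutamate receptors. Cacng3 gave 0.17 (SE 0.16, interval -0.18 to 0.51). Cacng2, known as stargazin, was dim, at 3.15 ± 0.06 and 3.03 ± 0.08 (SD, n = 5 each, difference -0.12, exact permutation p = 0.0397), and its unadjusted limma p was not under 0.05 in 5 of the 10 fits that left out 1 array. Cacng5 read 4.09 in labelled null array 1 and between 2.37 and 2.79 in the other 9 arrays, so its difference was 0.40 with that array and 0.12 without it. Cacng6, a relative of the muscle gamma subunit, was dim and differed by 0.09 (SE 0.05).

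Probe sets of 1 gene share their RNA, so a second probe set is another reading of the same mice, not a replicate. Of the 43 other probe sets 29 had the sign of the brightest one, and where both were at 5 or above it was 10 of 13, in 12 genes. The lower readings of 3 genes had the same sign at their second probe set. For Cacnb4 the second probe set gave -0.26 (SE 0.11, exact permutation p = 0.0952), for Scn1a -0.16 (SE 0.07, p = 0.0714) and for Kcnab2 -0.21 (SE 0.23, p = 0.444). The unadjusted limma p was under 0.05 for the first and the second of these. At the second probe set Scn1a read 7.72, 7.64, 7.52, 7.65 and 7.47 in the labelled wild type arrays, and 7.52, 7.38, 7.35, 7.62 and 7.36 in the labelled null arrays. There the groups overlapped, and array 4 was the highest of the labelled null group, whereas at the brightest probe set it was the lowest. The second probe set of Scn3b was dim (mean 3.41) and gave 0.11 (SE 0.15, interval -0.21 to 0.44), and there the groups overlapped. Kcnma1 went the other way at its second probe set, by -0.11 with a wide spread (SE 0.40), Kcnab1 gave 0.09 and Kcnd2 gave 0.13 at 1 of its other probe sets.

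**Figure D4:**
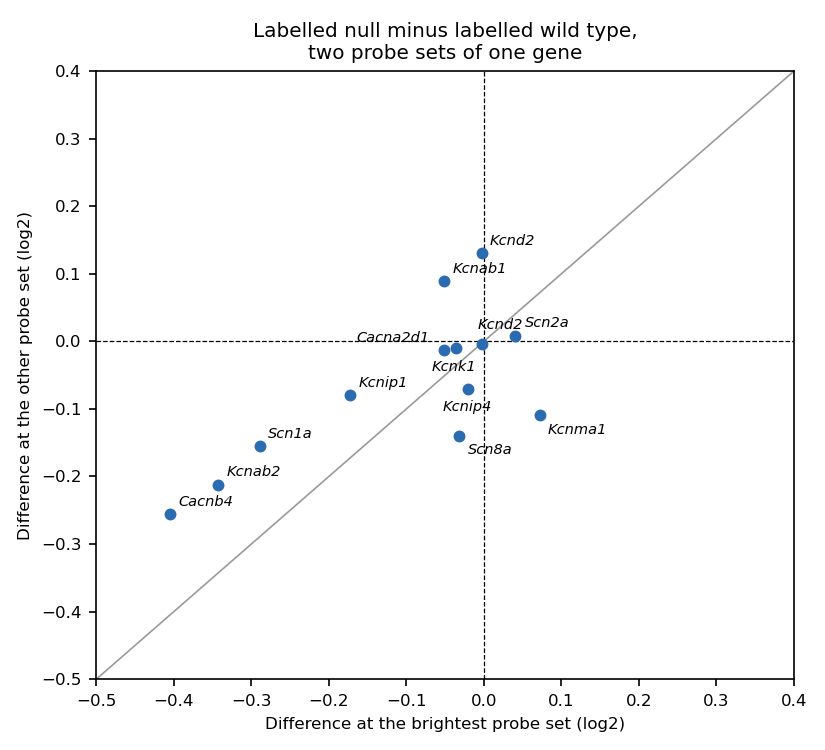
Difference between the labels, null less wild type (log2), at the brightest probe set (x axis) against that at another probe set of the same gene (y axis), for the 13 pairs in 12 channel genes where both have a mean of at least 5, with the line of equal values. Cacnb4, Kcnab2 and Scn1a lie below 0 on both axes, while Kcnma1, Kcnab1 and 1 probe set of Kcnd2 lie on opposite sides of 0.

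Chromosome 7 holds Apbb1 and 13 of the channel genes. Near a targeted gene, backcrossed mice can keep sequence of the donor strain. The 13 genes had a median difference of 0.02, and 0 of them had an unadjusted limma p under 0.05. In the interval from Homer2 to Gprc5b, which spans FE65 and held 181 genes of the array, the single channel gene was Kcne3, a small partner of potassium channels. It was dim, at 1.21 ± 0.04 and 1.15 ± 0.10 (SD, n = 5 each), and its difference was -0.05 (SE 0.05, exact permutation p = 0.278). The study found donor sequence at Homer2 and at Gprc5b but did not map its full extent. Whether other channel genes of chromosome 7 lie in kept sequence is therefore not known.

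The SD between mice within a label, pooled over the labels, was larger than the difference between labels in 83 of the 98 genes and in 25 of the 30 with a mean of at least 5. The same count over all genes was not made, so these counts do not set the channel genes apart. Among the 30, the widest were Kcnip2, Kcnj9, Kcna1, Cacnb4 and Cacna2d1. Over the probe sets with a mean of at least 5, the first axis of a principal component analysis held 44.9% of the variance and did not follow the labels, with labelled wild type array 1 and labelled null arrays 1 and 4 at one end and labelled wild type array 2 and labelled null array 5 at the other. Several readings above turned on these same arrays. The 3′ minus 5′ readings of the Gapdh control, a measure of RNA integrity, ran from -0.04 to 0.27 in the labelled wild type and from -0.07 to 0.12 in the labelled null arrays, and those of Actb from -0.03 to 0.35 and from -0.03 to 0.37. The part of this axis in the channel readings was not tested.

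**Figure D5:**
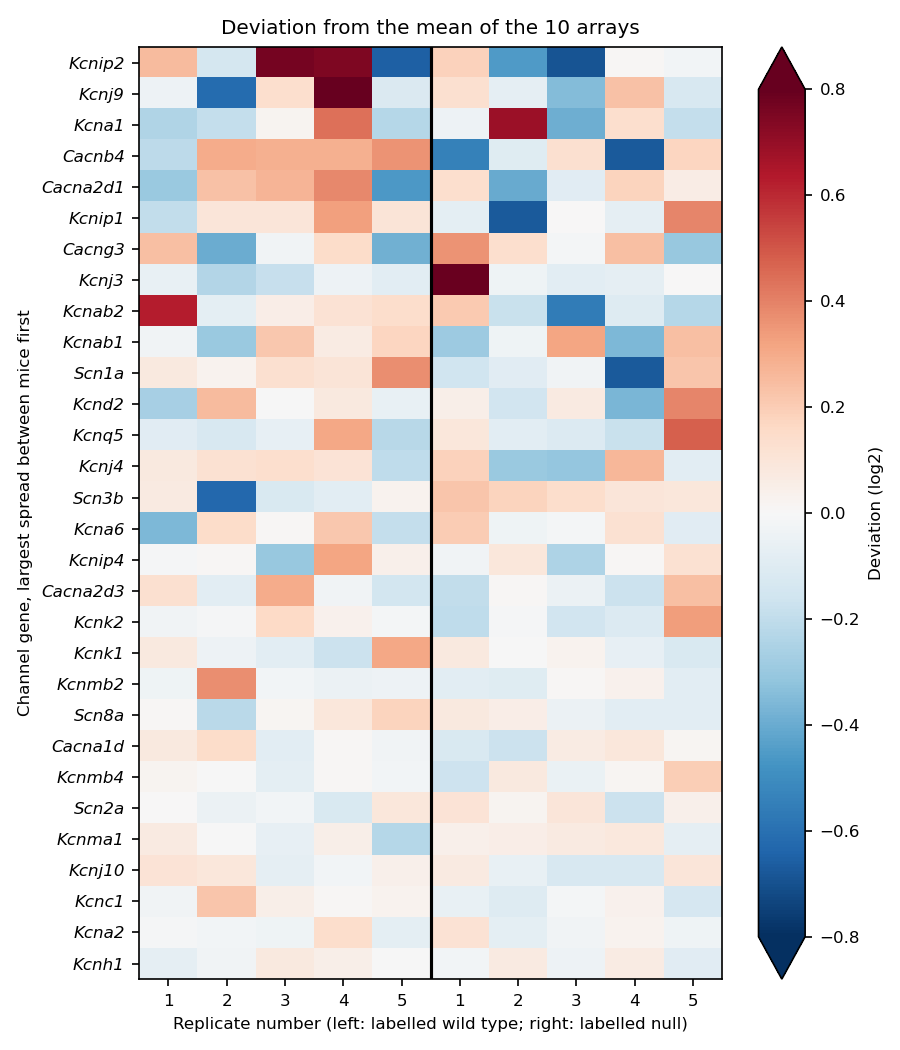
Deviation of each array from the gene's mean over the 10 arrays (log2, colour, clipped at 0.8) for the 30 channel genes with a mean of at least 5, sorted by spread between mice, with replicates 1 to 5 of the labelled wild type left of the line and of the labelled null right of it. The widest deviations are in the top rows (Kcnip2, Kcnj9, Kcna1), and no row except Scn3b separates the labels.

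Marker genes of the cell types that could move with the channel genes were read on the same arrays, and no gene of any list passed the adjusted threshold. The lists were chosen with earlier results of these data known, so their shares are not read as an excess. In the list for parvalbumin interneurons 13 of 14 genes were measured, 9 of them with a mean of at least 5. At an unadjusted limma p under 0.05, 0 were higher and 3 lower. The shares were 1.33% and 2.61% over all genes, and 1.32% and 5.2% over those with a mean of at least 5. The 3 were Nefh, a neurofilament, by -0.43 (SE 0.07), Lynx1, a modulator of nicotinic receptors, by -0.39 (SE 0.07) and Vamp1, a vesicle protein, by -0.34 (SE 0.07). All 3 were put in the list with their values known. The defining gene Pvalb gave -0.15 (SE 0.13, exact permutation p = 0.31). The summed linear level of the list was 13478 to 14050 in the labelled wild type and 11677 to 13102 in the labelled null arrays. Without those 3 genes the sum over the other 10 was 9043 to 9563 and 8451 to 9409, and the groups overlapped. The part of this list in the lower readings of Scn1a, Kcnc1 and Kcnab2 was not tested.

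In the oligodendrocyte list 3 of 10 measured genes were lower at that threshold, Mbp (-0.23, SE 0.07), Cldn11 (-0.52, SE 0.22) and Olig2 (-0.18, SE 0.08). This is against 2.61% of all genes and 5.2% of those with a mean of at least 5, a level that 8 of the 10 reached. The sum was 22352 to 29928 in the labelled wild type and 21228 to 23922 in the labelled null arrays. The astrocyte list had 1 lower gene of 10 (S100b, -0.25), the endothelial list 1 of 8 (Abcb1a, -0.30) and the list of other interneurons 1 higher of 8 (Reln, 0.34), against 2.61% of all genes on the lower and 1.33% on the higher side. Over genes with a mean of at least 5 these shares were 5.2% and 1.32%. Labelled null array 1, the array that stood apart for Kcnj3 and Cacng5, was also the highest for Reln (10.67) and for Calb2, another marker of that list, at 5.02 against 3.01 to 3.51 in the other 9 arrays (difference 0.47, SE 0.31). Their part in the readings of Kcnj3 and Cacng5 was not tested. The lists for excitatory neurons (9 measured genes), microglia (10), choroid plexus (4), striatum (5) and thalamus (8) had 0 genes at that threshold in limma. Of the excitatory genes Neurod6 gave -0.48 (SE 0.22) and Tbr1 -0.33 (SE 0.21), and both were lowest in labelled null array 4 (7.82 and 7.07), which was also the lowest array for Scn1a and Cacnb4 at their brightest probe sets. The summed level of the excitatory list was 779 to 1192 in the labelled wild type and 562 to 1007 in the labelled null arrays, and its part in these readings was not tested. As a check of the cortical label, 3 of the 9 excitatory genes had a mean of at least 5 over the 10 arrays, Neurod6 (8.84), Tbr1 (7.70) and Rorb (6.85), while Camk2a, Neurod2, Cux2, Bcl11b, Fezf2 and Foxp2 were dim, between 1.60 and 4.13. The summed level of the choroid plexus list was between 45.2 and 242 in the labelled wild type and between 46.9 and 122 in the labelled null arrays, and that of the striatum list between 226 and 404 and between 233 and 262.

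Genes that anchor, gate or balance these channels without bearing their symbols were read as well. Of 51 such genes 35 were measured, of which 0 passed the adjusted threshold, 0 were higher (against 1.33% of all genes) and 4 lower (11.4%, against 2.61% of all genes and 5.2% of those with a mean of at least 5) at an unadjusted limma p under 0.05, and the median was -0.02. The 4 were Hcn2, a pore of the pacemaker current (-0.19, SE 0.07), Nrcam, an adhesion molecule of the node of Ranvier (-0.18, SE 0.07), Fgf13, an intracellular partner of sodium channels (-0.22, SE 0.10), and Stac2, an adaptor of calcium channels (-0.20, SE 0.09). None of the 4 had arrays of the labels without overlap. Hcn2 was dim (mean 4.75), and 23 of the 35 genes had a mean of at least 5. The list was chosen with earlier results of these data known, so its share is not read as an excess.

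The start regions of 3 of these genes are shown for the contrast in sequence between channel genes of cortex, since each has 1 listed start and was chosen after its values were seen. Of the 98 genes 77 matched the RefSeq table of windows from 250 bases before to 50 bases after a start (mouse, GRCm38.p6), with 105 windows, and Scn3b and Cacna1g did not match it. Capitals mark the GC box GGGCGG and the CCAAT box CCAAT, each searched on both strands and not overlapping the other. The windows are chr2:66440788-66441087 on the minus strand (Scn1a), chr7:46396218-46396517 on the plus strand (Kcnc1) and chr19:45816014-45816313 on the minus strand (Kcnip2).
Scn1a: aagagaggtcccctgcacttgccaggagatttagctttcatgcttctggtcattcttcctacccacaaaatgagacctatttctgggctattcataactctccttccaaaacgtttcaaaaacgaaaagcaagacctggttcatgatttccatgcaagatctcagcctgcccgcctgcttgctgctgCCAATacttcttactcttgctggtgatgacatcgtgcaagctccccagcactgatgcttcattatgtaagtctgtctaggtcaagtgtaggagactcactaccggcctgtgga
Kcnc1: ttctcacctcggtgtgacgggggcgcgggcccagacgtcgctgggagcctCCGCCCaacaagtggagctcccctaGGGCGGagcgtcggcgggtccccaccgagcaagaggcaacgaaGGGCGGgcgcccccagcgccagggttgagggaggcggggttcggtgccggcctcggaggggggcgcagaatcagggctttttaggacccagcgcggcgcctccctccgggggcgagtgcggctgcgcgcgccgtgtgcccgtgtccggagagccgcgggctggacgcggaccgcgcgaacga
Kcnip2: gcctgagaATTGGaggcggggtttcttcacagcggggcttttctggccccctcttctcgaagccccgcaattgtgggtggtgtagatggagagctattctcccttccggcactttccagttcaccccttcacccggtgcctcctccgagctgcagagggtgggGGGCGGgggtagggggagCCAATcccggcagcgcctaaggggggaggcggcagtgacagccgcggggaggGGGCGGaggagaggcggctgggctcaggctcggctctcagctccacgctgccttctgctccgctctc
The Scn1a window was 47.3% G and C with 0 GC boxes and 1 CCAAT box, the Kcnc1 window 74.7% with 3 GC boxes and 0 CCAAT boxes, and the Kcnip2 window 67% with 2 of each. A GC box was in 47.6% of the channel windows and in 35.7% of all 32851 windows, and a CCAAT box in 26.7% and 37.4%. The median G and C content was 58.3% over the channel windows and 52.7% over all windows. Expression arrays do not measure binding, and the motifs are given as a description.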

How the data were processed

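The values analysed are on the log2 scale, as the authors deposited them after GC-RMA, a method that corrects each probe for background by its GC content, normalizes between arrays and summarises a probe set. Which release of it was run is not given in the sources used. RNA of individual cortices was copied into double-stranded cDNA, and labelled cRNA for the arrays was transcribed from it in vitro. Arrays were grouped by their labels, 5 per group, and each array is a separate mouse. The study describes littermate pairs but no source says which arrays form one.

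Of 22690 probe sets, 64 controls were set aside. The platform annotation paired 20380 of the remaining 22626 with a single gene, 691 with several and 1555 with none. Gene names and chromosomes come from the RefSeq table of GRCm38.p6, which matched all 141 channel probe sets by gene number. The difference was fitted over all 22626 probe sets with limma 3.58.1 in R 4.3.3 (lmFit, eBayes, two-sided, Benjamini-Hochberg, threshold 0.05), and tables and figures were made with Python 3.11.15, pandas 2.3.3, numpy 2.4.6 and matplotlib 3.10.9. Named genes were also tested by exact permutation of the labels, for genes whose arrays overlapped as an addition made after seeing the data. Tested on simulated data for this comparison (22626 probe sets), the fit recovered 46% of 100 changes of 1.4-fold and 80% of 100 changes of 2-fold, with 5 false calls (3.82%). The simulated noise was independent between probe sets, and the changes were placed in probe sets with a mean of at least 5. These rates therefore do not cover dim genes or variation that probe sets share.

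The members, marker lists and pathway list were chosen with earlier results of these data known. Genes were named by rule: all with an unadjusted p under 0.05 or arrays without overlap, up to 10 higher and 10 lower with the smallest p, the smallest p in each family, the widest 5 among those at 5 or above, genes between Homer2 and Gprc5b, and genes whose second probe set had an unadjusted p under 0.05. Other channel genes named were added for their role after their values were seen. The alternatives were the replicate number as a block, median centring, quantile normalization, a filter that dropped probe sets of mean below 5, values floored at 4, limma's robust prior with a trend on intensity, array weights, the methods' t-test, the mean of a gene's probe sets, and leaving out each array. A fold is 2 to the power of the log2 difference, and differences of dim genes are compressed toward 0. No column of the table was left unused.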

Additional observations from a re-analysis of the deposited data

Results flagged for a closer look

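In each group of 5 arrays of the 30 named genes, the highest or lowest array was compared with its nearest neighbour, and 11 of 60 groups had an array that stood apart by a gap of over 0.71 of the group's range. For independent groups with normal spread chance flags about 1 in 20. These groups share the same 10 arrays, and some genes were named for their wide spread, so that rate does not apply to them. The same count over all genes was not made. Groups of dim genes are among the 11. Among the genes with a mean of at least 5 these were Scn3b, with labelled wild type array 2 at 8.21, Cacnb4, with labelled wild type array 1 at 10.2, and Kcnc1, with labelled wild type array 2 at 8.50. Kcnq5 had labelled wild type array 4 at 6.37 and Kcnj3 labelled null array 1 at 7.64.

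Among the dim genes labelled null array 1 was at 4.09 for Cacng5 and labelled null array 4 at 1.998 for Cacng6. Labelled wild type array 2 was at 4.64 for Scnn1a and at 1.27 for Kcne3, labelled wild type array 4 at 3.32 for Cacna2d2, and labelled wild type array 1 at 1.24 for Kcna5. Labelled wild type array 2 was the array that stood apart in 4 of the 11 groups.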

How the results depend on the processing

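No channel gene passed the adjusted threshold under any of the 19 settings, where the lowest adjusted p of a channel gene was 0.469. Of 535 values of the 30 named genes over the settings, 525 kept their direction. The 10 that reversed were in 4 genes. Cacna2d1 was 0.0106 after quantile normalization and between -0.173 and 0.0433 when 1 array was left out (0.000919 without labelled wild type array 2, 0.0104 and 0.0386 without arrays 3 and 4 of that group). With 1 array left out Kcna1 ran from -0.0811 to 0.201, Kcnj9 from -0.239 to 0.123 (0.00204 without labelled null array 3) and Kcnq5 from -0.0314 to 0.165. Kcnq5 was -0.0237 with array weights.

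Counts at an unadjusted limma p under 0.05 moved by more. On the higher side, 281 probe sets became 524 after quantile normalization, 47 without dim probe sets, 95 with a floor at 4 and 597 with array weights, and 200 to 448 when 1 array was left out, the highest without labelled wild type array 2. On the lower side, 549 became 307 without dim probe sets, 304 with the floor and 852 with array weights, and 395 to 1276 when 1 array was left out (917 without labelled wild type array 1, 1276 without labelled null array 5). The 1 channel gene on the higher side became 2 after quantile normalization, 0 with the floor, 4 with the intensity trend, 5 with array weights and 2 with the mean of a gene's probe sets. It was 0 to 4 when 1 array was left out: 0 without labelled null array 1 or 2, 2 without labelled wild type array 1 or labelled null array 4, and 4 without labelled wild type array 2. The 4 on the lower side became 2 without dim probe sets, 0 with the floor and 7 with array weights. They were 1 to 7 when 1 array was left out: 1 without labelled wild type array 3 or labelled null array 2, 2 without labelled wild type array 2 or 4 or labelled null array 4, and 7 without labelled null array 5. The median over channel genes was -0.0427 without dim probe sets, a setting that leaves fewer genes. The other causes were not tested.

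No source says which arrays form a littermate pair, so the main fit left the replicate number out. The deviations of arrays with the same number correlated at 0.535, 0.0664, 0.105, 0.217 and 0.101, and 1 of 5 had its own number as best partner. Such correlations cannot show whether the numbers are littermate pairs. With the replicate number as a block, 322 probe sets were higher and 756 lower at an unadjusted p under 0.05, and 1 and 6 channel genes. The 6 were Cacna1g, Cacnb4, Cacng2 and Kcnab2, called without the block as well, and Scn1a and Cacna2d2. Their unadjusted limma p under the block was 0.0020, 0.013, 0.042, 0.0038, 0.029 and 0.039 in that order, and that of Scn3b on the higher side was 0.034. The adjusted p of these genes was between 0.867 and 0.974. The low signal of dim genes and 5 arrays per group limit what can be detected.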
